A study of Homo sapiens with 4 samples.

Results

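The genes examined encode centrosome proteins of the CEP and HAUS families, the gamma-tubulin ring complex and the centriole assembly pathway. A gene was taken when the platform's probe annotation gave it as the single symbol of a probe set and the symbol began with CEP, HAUS, TUBG or TUBGCP and a digit, or was PCNT, PCM1, NIN, CNTROB, CETN2, CETN3, SASS6, CENPJ, STIL or NEDD1. CENPJ is annotated under its current symbol, CPAP. This gave 61 genes of 18377 on the array. HAUS7 is not analysed here, because its probe set carries another gene's symbol as well.

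The data were 4 Affymetrix whole-transcript arrays, with 1 array for each of 4 groups: A549 cells with siTAZ, A549 cells with siNTC, H441 cells with siTAZ and H441 cells with siNTC. A549 and H441 are established human lung cancer lines, and RNA was taken 48 h after lipid transfection of either siRNA. siTAZ is named for TAZ, the transcriptional co-activator encoded by WWTR1, and siNTC was the control. No group has a replicate, and both siRNA arms of a line share its culture conditions as far as the labels say. The design asks which genes depend on TAZ in each line. No source used here gives the siRNA sequences or the number of siRNAs per reagent.

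Values are log2 RMA signals, and a difference is siTAZ minus siNTC on that scale. WWTR1 was at 7.64 with siTAZ against 10.04 with siNTC in A549, and at 7.47 against 9.61 in H441. Of 8 lung epithelial markers, 7 reached the median of the whole table (6.13) on both H441 arrays, the exception being SFTPC. On the A549 arrays 5 and 6 did, with NKX2-1 the lowest (5.01 and 5.02) and SFTPB below the table median as well. Of 7 measured markers of blood, endothelial and stromal cells, 1 or 2 reached the table median on any array, and PTPRC was the lowest on each.

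The centrosome is the main microtubule-organising centre of animal cells. It consists of a pair of centrioles in a protein matrix that holds the gamma-tubulin ring complex, from which microtubules grow. Centrioles duplicate once per cell cycle, and the mother centriole carries appendages that anchor it to the membrane when it becomes the basal body of a cilium. The HAUS proteins form augmin, which recruits gamma-tubulin to existing spindle microtubules.

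The promoters printed are those of CEP97 and NEDD1, which passed the test over both lines, and of TUBG1, which came next by p. Those of TUBGCP2 and TUBGCP3 are added because they held a TEAD motif. Neither of these 2 genes passed (limma adjusted p = 0.96 and 0.84). Each is the 250 bases before the RefSeq start in GRCh38.p14, written 5′ to 3′ on the strand of the gene. Capitals mark the motifs searched for on both strands: TTTGAA and TTCGAA, the cell cycle homology region, CCAAT, bound by NF-Y, and GGAATG, the core bound by the TEAD partners of TAZ.
CEP97 (chr3:101724364-101724613, plus strand): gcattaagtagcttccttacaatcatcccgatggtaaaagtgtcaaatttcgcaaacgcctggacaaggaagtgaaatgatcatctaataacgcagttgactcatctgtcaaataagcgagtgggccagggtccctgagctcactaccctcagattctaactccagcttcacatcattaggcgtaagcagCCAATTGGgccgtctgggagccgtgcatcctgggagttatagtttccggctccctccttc
NEDD1 (chr12:96907007-96907256, plus strand): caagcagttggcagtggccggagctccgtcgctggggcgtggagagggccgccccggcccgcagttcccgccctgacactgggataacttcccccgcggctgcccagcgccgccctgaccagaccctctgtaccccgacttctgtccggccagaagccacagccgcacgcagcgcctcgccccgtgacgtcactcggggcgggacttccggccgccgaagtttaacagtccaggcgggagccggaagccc
TUBG1 (chr17:42609433-42609682, plus strand): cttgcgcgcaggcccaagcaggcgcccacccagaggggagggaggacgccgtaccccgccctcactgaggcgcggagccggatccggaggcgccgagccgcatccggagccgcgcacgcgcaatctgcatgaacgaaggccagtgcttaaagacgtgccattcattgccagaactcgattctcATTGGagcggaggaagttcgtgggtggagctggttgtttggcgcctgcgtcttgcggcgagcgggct
TUBGCP2 (chr10:133312338-133312587, minus strand): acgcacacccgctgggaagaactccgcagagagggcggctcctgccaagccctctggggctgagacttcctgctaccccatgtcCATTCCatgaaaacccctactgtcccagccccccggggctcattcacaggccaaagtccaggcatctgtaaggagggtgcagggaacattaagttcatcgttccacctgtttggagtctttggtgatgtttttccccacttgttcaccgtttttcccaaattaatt
TUBGCP3 (chr13:112588154-112588403, minus strand): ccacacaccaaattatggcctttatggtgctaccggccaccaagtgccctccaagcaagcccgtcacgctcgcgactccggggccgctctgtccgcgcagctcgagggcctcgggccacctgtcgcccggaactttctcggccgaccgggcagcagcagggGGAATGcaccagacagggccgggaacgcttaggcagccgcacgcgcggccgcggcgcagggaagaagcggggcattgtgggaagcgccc
CEP97 held CCAAT on both strands in overlapping positions that begin 60 and 57 bases before its start. TUBG1 held it on the minus strand, beginning 67 bases before its start. The NEDD1 window held none of the 4 motifs. RefSeq promoters were matched for 53 of the 61 genes by symbol, and CEP15 was not among them.

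Among these 53 promoters, GGAATG was found in 2, a share of 3.77%, against 11.9% of 27305 promoters of the same length. These 27305 were all promoters of the RefSeq set, not only those of the 18377 genes on the array. CCAAT was found in 23, or 43.4%, against 33.0%. TTTGAA was found in 8, or 15.1%, against 13.6%, and TTCGAA in 0, against 1.2%. The windows had a median of 65.6% G and C, against 58.0% over all promoters. In H441 the median difference was -0.06 for the genes with CCAAT and -0.22 for those without. In A549 these medians were 0.07 and -0.02. A motif is a match of letters only.

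In H441 most centrosome genes were lower after siTAZ, and in A549 they were about evenly divided. In H441, 45 of the 61 genes were lower, 15 were higher and CEP95 had the same value on both arrays. The median difference was -0.18, with an interquartile range of -0.26 to 0. Over all 18377 genes 42.3% were lower in H441 and the median was 0.03. In A549, 30 genes were lower, 29 were higher and CEP152 and CEP85L had equal values. Their median was 0, against 0.0032 over all genes, of which 47.7% were lower.

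The differences were small for single genes. Within a line, genes entered the counts if at least 1 of its arrays reached the table median, which held for 57 of the 61 genes in H441 and 55 in A549. Of the 57, 42 were lower and the median was -0.18, against 48.8% lower and a median of 0.0048 over the 11911 genes counted. Of the 55 in A549, 30 were lower, with a median of -0.02. At least 1.5-fold, 1 of the 57 was lower in H441, CEP15, against 0.974% of all counted genes, and 0 were higher, against 0.479%. In A549, 0 of 55 were 1.5-fold higher and 0 lower, against 1.76% and 1.07% of all counted genes. CEP97 and CEP170 lay just under that fold in A549, at 1.48-fold and 1.47-fold higher.

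**Figure D1:**
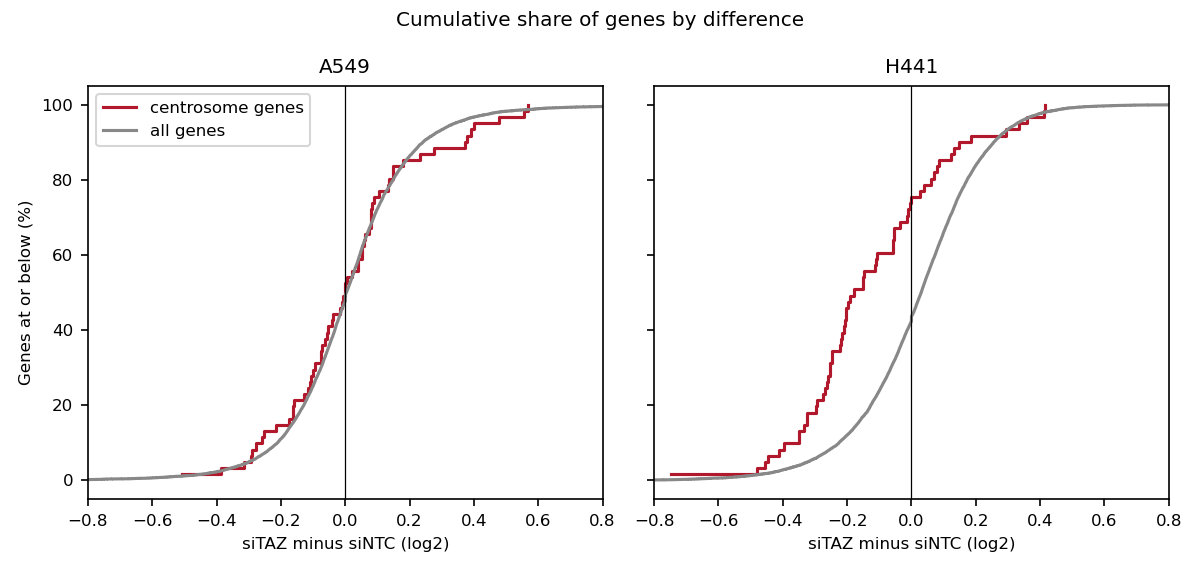
Cumulative percentage of genes (vertical axis) at or below each siTAZ minus siNTC difference (horizontal axis, log2), for the 61 centrosome genes in red and all 18377 genes in grey, with 1 array per group. In H441 the red curve lies left of the grey one, with medians of -0.18 and 0.03, while in A549 the curves nearly coincide at 0.

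Of 20 mitosis genes listed for comparison, such as cyclins and spindle checkpoint kinases, 20 had a lower value with siTAZ in H441 (median -0.31) and 12 in A549 (median -0.05). Over all counted genes 48.8% were lower in H441 and 48.4% in A549. The list was chosen with earlier results of these data known. No test was possible within a line. Over both lines limma called 1 of the 20 as lower, against 1.29% of all genes tested. Before adjustment 4, or 20%, had a p under 0.05, against 13.2%. ANLN, which encodes anillin of the cleavage furrow, had 9.56 with siTAZ against 9.81 with siNTC in A549 and 9.84 against 10.59 in H441, and it fell over both lines (limma adjusted p = 0.033). It lost this call after quantile normalization (adjusted p = 0.11), after cyclic loess (0.20) and without the filter on dim genes (0.16). NUSAP1, a spindle protein gene, was 0.18 higher in A549 and had -0.59 in H441. The share of cells in mitosis was not measured, its part in the centrosome gene values was not tested, and fewer cells of a kind and less RNA per cell cannot be told apart in bulk RNA.

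Over both lines, 3 of the 58 centrosome genes tested passed, CEP97 higher and NEDD1 and CEP15 lower. The limma fit had the cell line as a block and 1 residual degree of freedom, so a call rests on the agreement of 2 lines and on a spread shared over 12740 genes. The 1 higher call stands against 1.19% of all genes tested, and the 2 lower calls against 1.29%. At an unadjusted p under 0.05 there were 12 centrosome genes, 4 higher and 8 lower, or 20.7%, against 13.2% of all genes tested. The 3 genes that were too dim to be tested were CEP162, CEP85L and CEP295NL. After quantile normalization, cyclic loess or removal of the filter on dim genes, 0 of the 3 calls held, with adjusted p between 0.059 and 0.20. In these settings 13 of 58, 13 of 58 and 14 of 61 centrosome genes had an unadjusted p under 0.05. Over all genes tested the counts were 1595 of 12674, 1493 of 12669 and 1956 of 18377.

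CEP97, whose protein caps centrioles together with CCP110 and holds back cilium formation, rose. Its signal was 8.63 with siTAZ against 8.06 with siNTC in A549, and 8.59 against 8.18 in H441. Both siTAZ arrays were thus above both siNTC arrays. The mean difference was 0.49 ± 0.12 (limma SE, 2 lines, limma adjusted p = 0.023). The SE here and below is the moderated one, drawn mostly from all genes. CCP110 itself had differences of -0.09 and -0.25 in A549 and H441 (limma adjusted p = 0.59).

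NEDD1, the adaptor that brings the gamma-tubulin ring complex to centrosomes and spindles, fell. Its signal was 9.43 with siTAZ against 9.94 with siNTC in A549, and 10.15 against 10.60 in H441. The siTAZ array was the lower one in each line, while both H441 arrays were above both A549 arrays. The mean difference was -0.48 ± 0.12 (limma SE, 2 lines, limma adjusted p = 0.027).

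CEP15 fell, mainly through H441. Its signal was 7.44 with siTAZ against 7.69 with siNTC in A549, and 9.07 against 9.82 in H441. The H441 difference was 1.68-fold and the A549 difference 1.19-fold. The mean was -0.50 ± 0.13 (limma SE, 2 lines, limma adjusted p = 0.033).

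**Figure D2:**
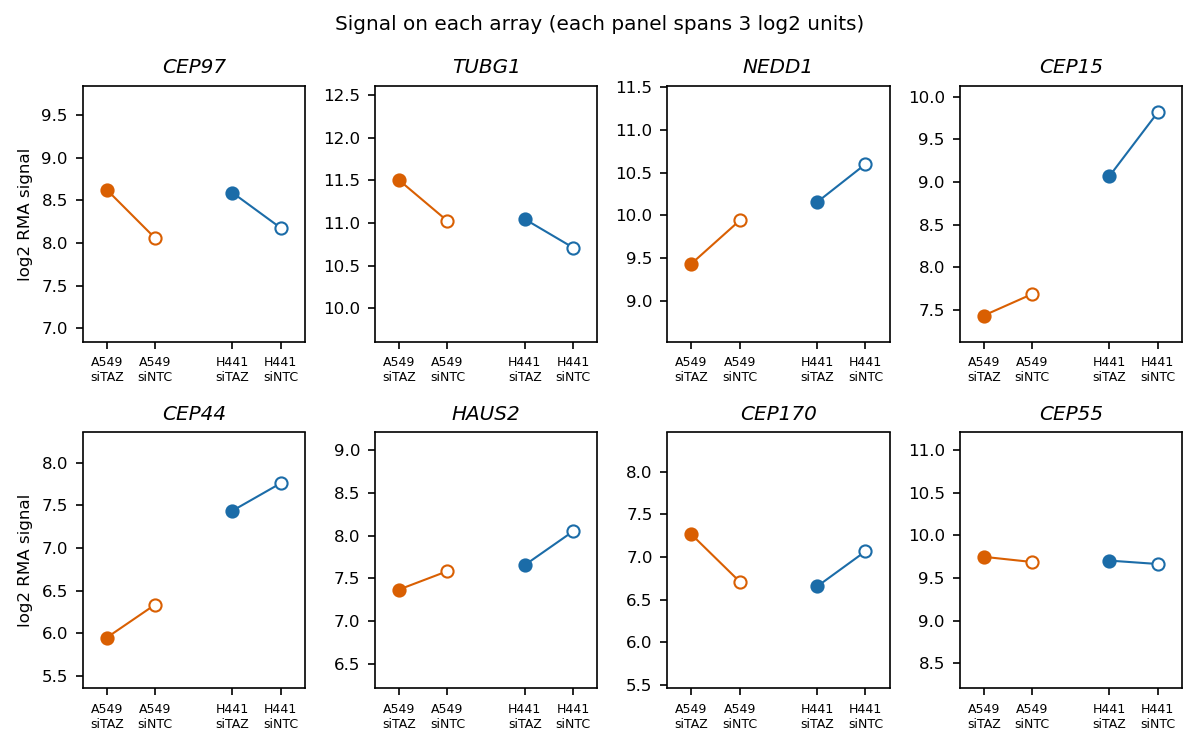
Log2 RMA signal (vertical axis, 3 units in every panel) on each of the 4 arrays for 8 centrosome genes, with siTAZ filled and siNTC open, A549 in orange and H441 in blue. CEP97 and TUBG1 were higher with siTAZ in both lines, NEDD1, CEP15, CEP44 and HAUS2 were lower in both, CEP170 went opposite ways, and CEP55 differed by 0.06 and 0.04.

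Among the 7 augmin genes, 6 were lower in H441 (median -0.25) and 5 in A549 (median -0.05), and 0 passed the limma test. At an unadjusted p under 0.05 there was 1, or 14.3%, against 13.2% of all genes tested. HAUS2 had 7.37 with siTAZ against 7.58 with siNTC in A549 and 7.65 against 8.05 in H441 (-0.31 ± 0.12 limma SE, limma adjusted p = 0.22). HAUS3 had differences of -0.11 and -0.28. The H441 differences of HAUS1, HAUS4 and HAUS6 lay between -0.25 and -0.22. HAUS5 was the exception in H441, at 7.41 with siTAZ against 7.11 with siNTC, with -0.01 in A549. HAUS6 was measured by 2 probe sets, which gave -0.46 and -0.22 in H441 and -0.10 and 0.01 in A549. The probe set with the higher mean, the one with -0.22 and 0.01, was used.

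The gamma-tubulin group, 2 gamma-tubulins, 5 ring complex subunits and NEDD1, was divided, with 4 of 8 lower in H441 and 5 in A549. Of the 8, NEDD1 alone passed the limma test, as lower, against 1.29% of all genes tested. Before adjustment 3, or 37.5%, had a limma p under 0.05, 2 higher and 1 lower, against 13.2%. TUBG1, the main gamma-tubulin gene, had 11.50 with siTAZ against 11.02 with siNTC in A549 and 11.05 against 10.71 in H441. Its siTAZ array was the higher one in each line, but it did not pass (0.41 ± 0.12 limma SE, limma adjusted p = 0.071). TUBG1 did pass when the limma prior followed the signal level (adjusted p = 0.00068), where limma called 594 of all genes tested, against 315 as reported. It passed in no other setting tried. With the cell line term kept, its limma adjusted p reached 0.16. TUBG2 had differences of 0.39 and 0.15 (limma adjusted p = 0.31). TUBG1 and TUBG2 are closely similar in sequence and RefSeq lists a TUBG1 pseudogene, so signal shared between their probes was not tested. The ring subunits TUBGCP2 to TUBGCP6 lay between -0.32 and 0.09 in A549 and between -0.26 and 0.13 in H441. TUBGCP4 had the lowest A549 value and TUBGCP3 the lowest H441 value. The promoters of TUBGCP2 and TUBGCP3, shown above with GGAATG, belong to genes with differences of -0.08 and 0.09 in A549 and 0.03 and -0.26 in H441.

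Of 18 centriole assembly genes, 15 were lower in H441 (median -0.17). In A549, 6 were lower and 11 higher (median 0.05). Of the 18, CEP97 alone passed the limma test, as higher, against 1.19% of all genes tested. Before adjustment 4, or 22.2%, had a p under 0.05, against 13.2%. CEP44, which acts in the conversion of centrioles to centrosomes, had 5.95 with siTAZ against 6.34 with siNTC in A549 and 7.44 against 7.76 in H441 (-0.36 ± 0.12 limma SE, limma adjusted p = 0.12). CEP295, of the same step, had -0.16 and -0.46 (limma adjusted p = 0.22), and CEP135, a cartwheel-linked protein gene, had -0.28 and -0.21.

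SASS6, which builds the centriole cartwheel, had -0.04 in A549 and -0.20 in H441. STIL, its partner, had 8.23 with siTAZ against 8.08 with siNTC in A549 and 8.42 against 8.77 in H441. CPAP, the microtubule elongation factor, had 0.08 and -0.01. CEP152 and CEP192, which recruit the kinase PLK4, had 0 and 0.14 in A549 and -0.18 and -0.48 in H441. PLK4 had -0.09 and -0.11. None of these 6 genes passed the limma test (adjusted p between 0.65 and 0.94). CEP76 (0.05 and 0.07) and the centrin gene CETN2 (0.05 and 0.12) were slightly higher in both lines. The remaining 7 genes lay between -0.07 and 0.08 in A549 and, with CETN3 the lowest, between -0.30 and -0.05 in H441.

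**Figure D3:**
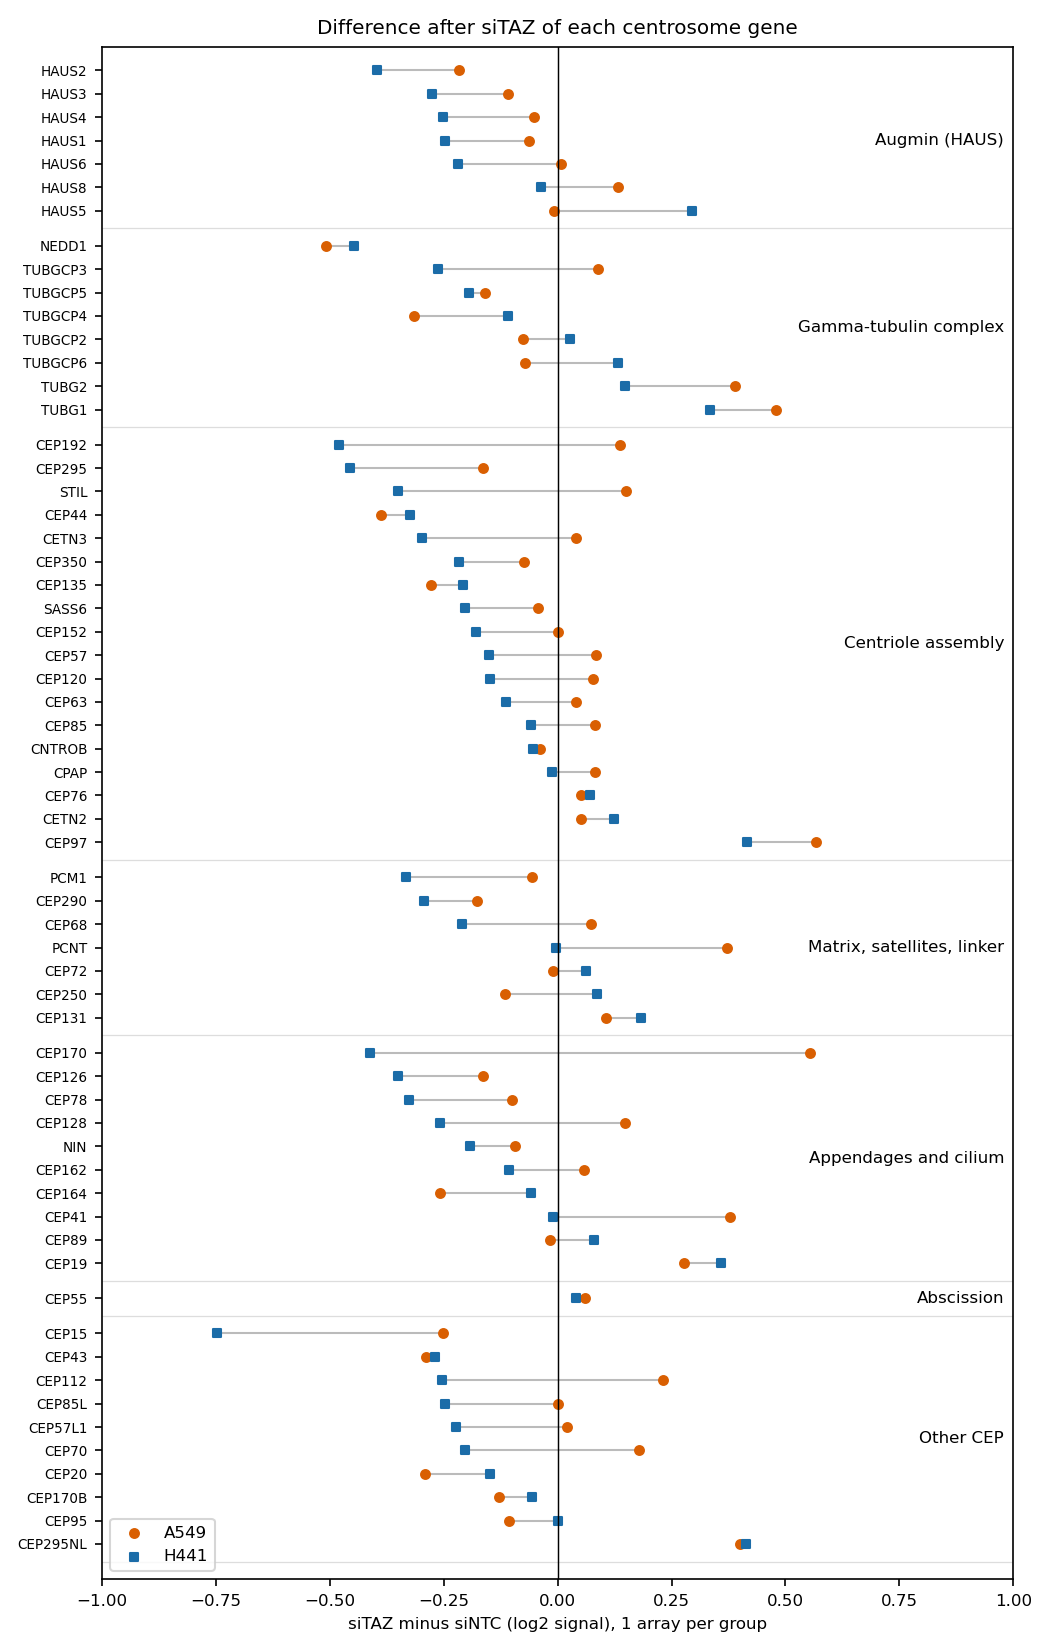
Difference siTAZ minus siNTC (horizontal axis, log2) of each of the 61 centrosome genes (rows, grouped by role), with A549 as orange circles and H441 as blue squares, 1 array per group. H441 lay below 0 for 45 genes, and 41 of the 61, or 67.2%, had an H441 value below the A549 value, against 47.5% of all genes.

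Matrix, satellite and linker genes were divided in both lines, with 4 of 7 lower in each. At an unadjusted limma p under 0.05 there were 0, against 13.2% of all genes tested. PCNT, the pericentrin gene of the matrix scaffold, had 7.35 with siTAZ against 6.98 with siNTC in A549 and 7.48 against 7.49 in H441. PCM1, the scaffold of centriolar satellites, had 9.64 against 9.69 in A549 and 8.55 against 8.88 in H441. CEP290, a transition zone and satellite protein gene, had -0.18 and -0.29 (limma adjusted p = 0.40), and CEP131, another satellite gene, 0.11 and 0.18. CEP68, CEP72 and CEP250 lay between -0.12 and 0.07 in A549 and between -0.21 and 0.09 in H441.

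Of 10 appendage and cilium genes, 8 were lower in H441 (median -0.15) and 5 in A549 (median 0.02). The limma test passed 0 of the 9 tested. At an unadjusted p under 0.05 there were 2, or 22.2%, against 13.2% of all genes tested. CEP170, of the subdistal appendages, went opposite ways in the lines. It had 7.26 with siTAZ against 6.71 with siNTC in A549, and 6.65 against 7.07 in H441. It was the only one of the 61 genes with opposite differences of at least 0.32 on the log2 scale in both lines, a contrast between lines that was not tested. The share of all genes that reach this cutoff was not counted. RefSeq lists a CEP170 pseudogene, CEP170P1. CEP19, a ciliogenesis gene, was higher in both lines (0.28 and 0.36, limma adjusted p = 0.19), and NIN, the ninein gene, had -0.09 and -0.19. The remaining 7 genes ran from CEP164 at -0.26 to CEP41 at 0.38 in A549, and from CEP126 at -0.35 to CEP89 at 0.08 in H441.

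CEP55, which acts in the abscission of dividing cells, had 9.75 with siTAZ against 9.69 with siNTC in A549 and 9.71 against 9.67 in H441. The mean difference was smaller than its error (0.05 ± 0.12 limma SE, limma adjusted p = 0.91). Of the remaining 10 CEP genes, 8 were lower in H441 and 5 in A549. Of the 8 tested, CEP15 alone passed the limma test, as lower, against 1.29% of all genes tested. Before adjustment 2, or 25%, had a limma p under 0.05, against 13.2%. CEP43, which acts in cilium formation, had -0.29 and -0.27 (limma adjusted p = 0.27). CEP295NL, which was below the table median on all 4 arrays, had 5.62 with siTAZ against 5.22 with siNTC in A549 and 5.65 against 5.24 in H441. It lies within the span of TIMP2, a metalloprotease inhibitor gene named here after its values were seen, which had 0.52 and 0.28 (limma adjusted p = 0.082). The remaining 7 ran from CEP20 at -0.29 to CEP112 at 0.23 in A549, and from CEP112 at -0.25 to CEP95 at 0 in H441. CEP112 was below the table median on both H441 arrays.

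Across the 61 genes the differences in the lines correlated at Pearson r = 0.48 (Spearman 0.36), against 0.27 (0.19) over all 18377 genes. Of the 61, 58 were bright enough to be tested, against 12740 of the 18377, so these correlations cover unlike signal levels. The lines share no array, and genes are not independent replicates. Of the 61, 23 were lower in both lines, 9 higher in both, 20 higher in A549 and lower in H441, and 6 the reverse. The same sign in both lines was found for 52.5% of them, against 54.6% of all genes. By the smaller of the differences, the genes lower in both lines were led by NEDD1, CEP44 and CEP43, and those higher in both by CEP97, CEP295NL and TUBG1.

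**Figure D4:**
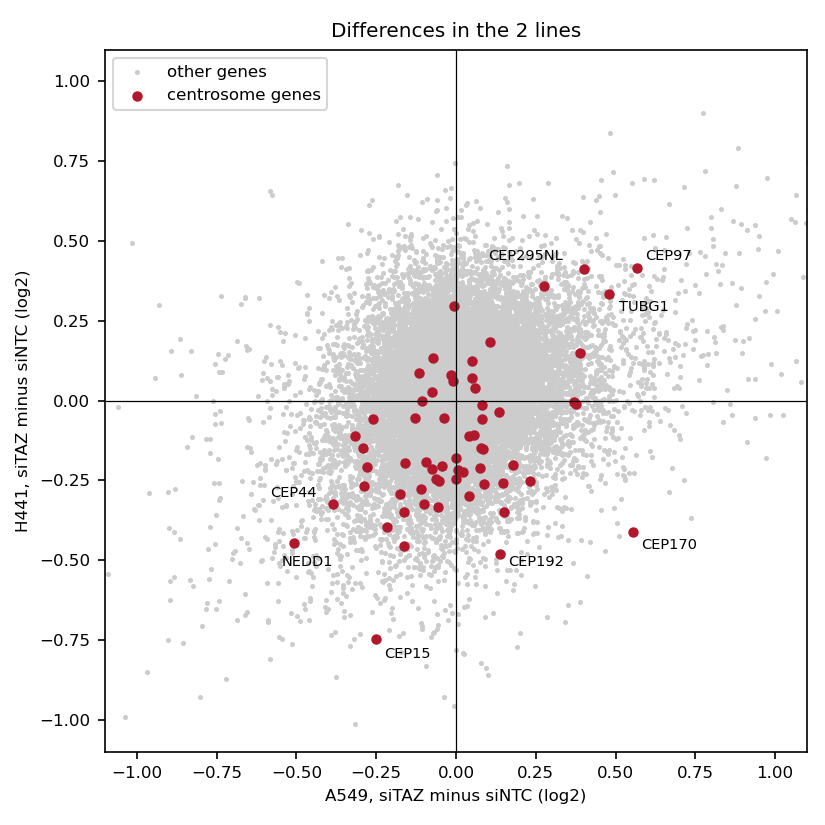
Difference siTAZ minus siNTC in A549 (horizontal axis, log2) against H441 (vertical axis, log2) for the 61 centrosome genes in red and the other genes in grey, with 36 genes, none of them red, beyond the axes at 1.1. The red points lie mostly below the horizontal line, with CEP97 and TUBG1 at upper right, NEDD1 at lower left and CEP170 at lower right.

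A list of other centrosome genes gave counts close to those of the 61. Of 47 on the array, 35 were lower in H441 (median -0.15) and 26 in A549 (median -0.01), against 42.3% and 47.7% of all genes. The limma test passed 1 higher and 1 lower, and 8, or 17.0%, had an unadjusted p under 0.05. Over all genes tested these shares were 1.19%, 1.29% and 13.2%. PLK2, a polo-like kinase gene linked to centriole duplication, fell, with 9.72 with siTAZ against 10.76 with siNTC in A549 and 7.85 against 8.84 in H441 (limma adjusted p = 2.3e-05). NEK7, a kinase gene linked to centrosome separation, rose, with 8.88 against 7.20 in A549 and 9.72 against 9.18 in H441 (limma adjusted p = 0.00035). NEK7 lost its call after cyclic loess (adjusted p = 0.098) and without the filter on dim genes (0.055). The satellite gene SSX2IP had 0.56 and -0.03, and the centriole gene POC1A -0.44 and -0.15.

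Between the lines, whatever the siRNA, 42 of the 58 genes differed in the same fit, a share of 72.4% that was close to the 71.9% of all genes tested. The arrays of a line are its siTAZ and siNTC arms, not replicates. The error, here and below, is thus how far the siRNA differences disagreed between lines, with a spread shared over genes. Spread between replicate cultures of a line was not measured, so a culture difference cannot be told from a line difference. Of the 58, 6 were higher in A549 than in H441, against 19% of all genes tested, and 36 were lower, against 52.8%. Their median difference, A549 minus H441, was -0.38, against -0.31 over all genes tested. The split into higher and lower depended on the scaling of the arrays. Of the 58 genes, 10 were higher and 24 lower after median centring, against 3109 and 5244 of 12674 genes tested. After quantile normalization it was 18 and 19, against 4068 and 4141 of 12674. After cyclic loess it was 18 and 17, against 4074 and 3984 of 12669.

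The genes with the largest line differences kept their direction and call under each scaling, filter and prior tried in which they were tested. Their SE and p-values hold no spread between replicate cultures of a line. CEP70, a microtubule-linked centrosome gene, averaged 6.81 in A549 and 8.96 in H441, 4.44-fold lower in A549 (-2.15 ± 0.12 limma SE, 2 arrays per line, limma adjusted p = 1.3e-13). CEP15 averaged 7.56 in A549 and 9.45 in H441, a 3.69-fold lower level. CEP57, which acts in centriole engagement, was 2.94-fold lower in A549 and CEP44 2.74-fold. CEP170B, CEP68, a linker gene, TUBGCP4 and CEP72 were between 2.19-fold and 2.51-fold lower in A549.

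In the other direction, HAUS6 averaged 9.17 in A549 and 7.99 in H441, 2.27-fold higher in A549 (1.18 ± 0.12 limma SE, limma adjusted p = 4.4e-09). CEP112 was 2.10-fold and PCM1 1.93-fold higher in A549. Both H441 arrays were below the table median of 6.13 for CEP112, at 5.45 with siTAZ and 5.71 with siNTC. CEP89, of the distal appendages, was 1.61-fold, TUBG1 1.31-fold and TUBGCP5 1.21-fold higher. The size of the line differences depended on the scaling for the genes of both directions. On the log2 scale it ran from 0.69 to 1.04 for CEP89, from 0.39 to 0.79 for TUBG1 and from 0.28 to 0.60 for TUBGCP5. For HAUS6 it ran from 1.18 to 1.56, for CEP70 from -2.15 to -1.80 and for CEP15 from -1.88 to -1.51. The folds printed are the largest of the settings tried for the named genes lower in A549, and the smallest for those higher. Of the other augmin genes, HAUS2, HAUS3 and HAUS4 were lower in A549 and HAUS1, HAUS5 and HAUS8 did not pass.

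**Figure D5:**
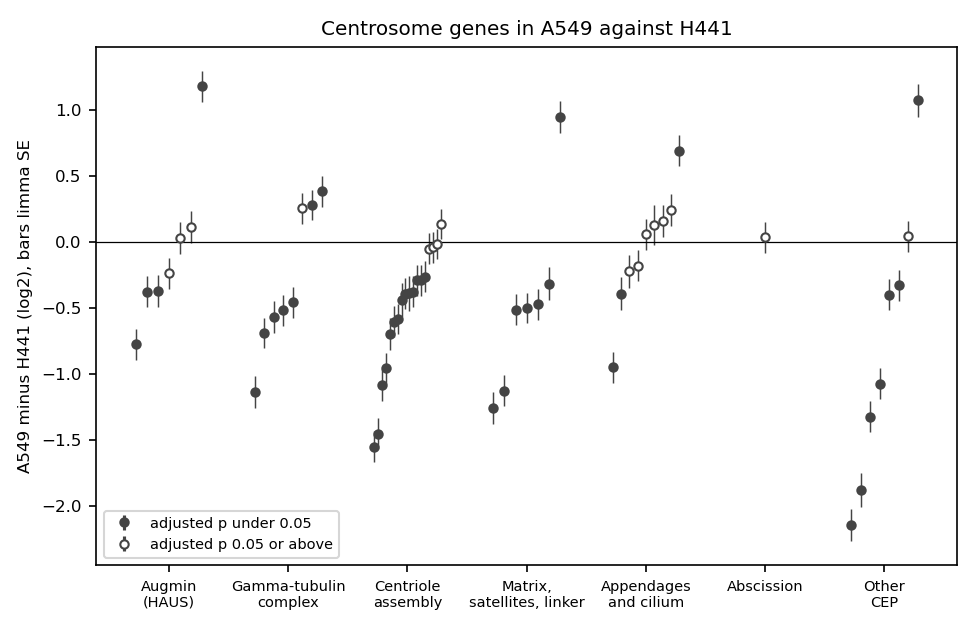
Difference A549 minus H441 (vertical axis, log2, limma coefficient with moderated SE as bars) of the 58 centrosome genes tested, grouped by role, with filled points at an adjusted p under 0.05. Most points lie below 0, down to CEP70 at -2.15, and HAUS6 at 1.18 is the highest. The median is -0.38, against -0.31 over all genes tested. The SE holds no spread between replicate cultures of a line.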

How the data were processed

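The deposited values were log2 probe set signals that the authors made with RMA, per the submitters' processing notes. That they are log2 was read from their range, 4.20 to 14.83 over 28869 probe sets. No source used here states the software or a joint normalization of the arrays.

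Probe sets with 1 gene symbol (19310) were used, the brightest for each gene. CENPJ was matched through RefSeq synonyms. The members, lists and roles were chosen with earlier results of these data known.

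The fit used limma 3.58.1 (R 4.3.3; lmFit, eBayes, two-sided) with a cell line block and covered the 12740 genes that reached the table median on any array, with Benjamini-Hochberg adjustment over all of them and a prior worth 22.3 degrees of freedom. It was also run on simulated data with the same spread for every gene and the same change in both lines, a simpler setting than these data. No result here rests on that run. The number of arrays limits the precision. Scaling, filters, probe set use, prior, line term, fold and list summary were varied.

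Named were genes called or 1.5-fold different, the 8 largest per direction in both lines or between lines, the 2 largest of each role and 9 fixed ones (PCNT, PCM1, NIN, CPAP, SASS6, STIL, NEDD1, TUBG1, CEP55). Other members, CCP110, PLK4 and TIMP2 were named after their values were seen.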

Additional observations from a re-analysis of the deposited data

Results flagged for a closer look

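CEP170 was 0.55 higher after siTAZ in A549 and -0.41 in H441 on the log2 scale, so the only array pair of each line went the opposite way. The contrast between the lines was not tested, because the 4 arrays allow no interaction term with an error. Among the 61 genes it alone had opposite differences of at least 0.32 in both lines. The share of all genes that reach this cutoff was not counted. At any size, 3386 of all 18377 genes were higher in A549 and lower in H441, and 4384 the reverse.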

How the results depend on the processing

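The number of centrosome genes called over both lines was 3 as reported, 4 with an intensity trend and 3 after median centring, with the mean of probe sets and with the filter on mean signal. It was 0 after quantile normalization, cyclic loess, without a filter and without the cell line term, where limma also called 0 genes in all, with 0 centrosome genes and 11 of all genes at an unadjusted p under 0.05. Calls over all genes were 315 of 12740 tested as reported and 594 of 12740 with an intensity trend. After scaling they were 400 of 12674 with median centring, 146 of 12674 with quantile normalization and 20 of 12669 with cyclic loess. With the mean of probe sets they were 300 of 12693. They were 275 of 11584 with the filter on mean signal and 92 of 18377 without a filter. At 1.3-fold, 6 centrosome genes differed in A549 and 7 in H441, against 0 and 1 at 1.5-fold. In A549 4 were higher and 2 lower, against 5.52% and 3.88% of all counted genes, and in H441 1 was higher and 6 lower, against 3.31% and 4.63%. The median H441 difference of the counted genes was -0.18 as reported and between -0.27 and -0.13 under the alternatives, always below 0. After scaling, 44 to 51 of the 61 genes were lower in H441, against 47.0% to 62.5% of all genes. The A549 median stayed between -0.04 and 0.0025. The causes of the lost calls were not tested. The fit pairs siTAZ with siNTC within each line through the cell line block, and the labels give no replicate numbers for another pairing. Leaving out a line leaves the difference of the other line, given above, with no test.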
